A study of Mus musculus with 12 samples.

Results

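The antigen presentation and B-lineage genes described here are Cd86, Cd80, Cd83, Cd22, Bank1, Cd74, Irf8, H2-Aa, H2-Ab1 and H2-Eb1, 10 of the 19938 genes measured. They were chosen by name, because several of them had lower values with TCDD, so their difference between TCDD and vehicle is given below as a description. Counts of these genes past a threshold in that contrast are printed only beside the share of all genes, and nothing is read from them. The data came from 12 gene expression arrays, 4 for each of 3 groups, hybridised with RNA of donor CD4+ T cells. Spleen cells of C57Bl/6 mice carrying the division dye CFSE had been transferred into B6D2F1 hosts, which sets off a graft-versus-host response, and donor CD4+ cells with at least 2 divisions were sorted from spleen and lymph node on day 2 (48 hr). The hosts had received i.p. TCDD at 15 µg/kg on day 0, 2 doses of Cl-BBQ (2 mg/kg each, days 0 and 1), or vehicle on both of these days. TCDD, a chlorinated dioxin, and Cl-BBQ are ligands of the aryl hydrocarbon receptor (AhR), a ligand-activated transcription factor. Doses and schedules differed, so TCDD and vehicle hosts also differed in the number of injections. All groups share the donor strain, the host strain, the sort and the day, and the mice were 10 to 12 weeks old. The labels number the arrays of a group as biological replicates and name no step that removed host cells before the transfer.

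An antigen-presenting cell displays peptides on MHC class II molecules, built from an alpha and a beta chain that assemble around the invariant chain CD74, and activates a CD4+ T cell when CD80 or CD86 on its surface also engages CD28 on the T cell. CTLA-4 binds the same ligands and restrains the response. B cells and dendritic cells express these genes constitutively. Resting mouse T cells express few of them, although activated T cells are known to carry CD86, CD80 and CD83.

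The promoters of the class II chains are known for a shared set of boxes, among them the X2 box and the Y box, which the factor NF-Y binds. Promoter windows of 6 of the 10 genes were matched by symbol in the RefSeq table for GRCm38.p6, with 7 windows in all, each taken as the 250 bases before an annotated start. They are shown for 2 class II chains, whose values overlapped between all groups, and for Irf8. Irf8 was lower with TCDD in the contrast that chose the genes. A link between these sequences and the values was not tested. The Cd22, Bank1, Cd80 and second Irf8 windows lie wholly or partly inside the annotated gene and are not shown. The windows are H2-Aa at chr17:34287824-34288073 (minus strand), H2-Eb1 at chr17:34305617-34305866 (plus strand), and Irf8 at chr8:120736108-120736357 (plus strand). Capitals mark matches to the Y box (CTGATTGG) and the X2 box (TGACGTCA), searched on both strands.
H2-Aa: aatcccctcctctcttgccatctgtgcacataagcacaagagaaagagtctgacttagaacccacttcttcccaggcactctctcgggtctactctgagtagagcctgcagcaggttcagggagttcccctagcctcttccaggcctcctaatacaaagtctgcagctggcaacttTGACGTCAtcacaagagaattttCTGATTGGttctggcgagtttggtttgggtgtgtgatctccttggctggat
H2-Eb1: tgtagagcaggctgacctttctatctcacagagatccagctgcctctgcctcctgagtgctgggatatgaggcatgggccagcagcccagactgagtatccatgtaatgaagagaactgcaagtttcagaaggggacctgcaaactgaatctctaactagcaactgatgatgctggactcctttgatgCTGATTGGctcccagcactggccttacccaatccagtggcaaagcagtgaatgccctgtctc
Irf8: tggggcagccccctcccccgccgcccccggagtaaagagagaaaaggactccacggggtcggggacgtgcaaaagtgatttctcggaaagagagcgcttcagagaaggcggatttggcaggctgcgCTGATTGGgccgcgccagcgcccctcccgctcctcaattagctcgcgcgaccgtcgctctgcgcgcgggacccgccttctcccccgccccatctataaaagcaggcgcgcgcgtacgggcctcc
The Y box matched once in each of the H2-Aa, H2-Eb1 and first Irf8 windows, starting 51, 62 and 124 bases before the start, and was present in 3.83% of all 32851 promoter windows of that length. The X2 box matched once, in H2-Aa, 74 bases before the start, against 1.55% of all windows. The core of the AhR response element, GCGTG, matched in 0 of the 7 windows on either strand, those inside annotated genes included, against 28.2% of all windows. A match describes letters in a window, and its absence says nothing of a factor bound elsewhere.

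The values are log2 intensities after robust multi-array averaging (RMA), so 1 unit is a doubling, and a level is compared only between groups for the same probe set. Array medians ran from 7.11 to 7.24. CD4 T cell genes were called in no comparison, where called means an adjusted p under 0.05 in limma over all 19938 genes. Cd4 averaged 12.39 ± 0.06 with TCDD, 12.42 ± 0.12 with Cl-BBQ and 12.44 ± 0.06 with vehicle (SD, n = 4 each), and Cd8a lay at 6.87 to 7.63 on 11 arrays and at 8.46 on vehicle array 2. Cd8b1, the other CD8 gene listed, lay at 9.57 to 10.13 over all arrays. On vehicle array 2 it had 9.90, inside the vehicle range of 9.73 to 10.13. The AhR target Cyp1b1 lay at 9.68 to 9.92 with TCDD, at 5.93 to 8.24 with Cl-BBQ and at 6.25 to 6.57 with vehicle. Its lowest value, 5.93, was that of Cl-BBQ array 3, below every vehicle array. Other AhR targets differed on that array: Nqo1 (6.59) and Ahrr (5.95) lay above every vehicle array, Cyp1a1 (6.43) within them, and Tiparp (9.246) just below the lowest (9.253).

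Of the 10 genes, 6 had every TCDD array below every vehicle array, where 2.65% of all genes did. They were Cd86, Cd83, Cd22, Bank1, Cd74 and Irf8. The other 4, Cd80 and the class II chains H2-Aa, H2-Ab1 and H2-Eb1, overlapped between these groups. Since the genes were chosen for lower values with TCDD, the separation of the 6 is no support for calling them lowered. In bulk RNA, fewer expressing cells and less RNA per cell cannot be told apart.

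Among the co-stimulatory ligands, Cd86, the ligand of CD28 and CTLA-4, had 7.77, 8.15, 7.87 and 7.72 on the TCDD arrays, 7.64, 8.18, 7.91 and 8.10 on the Cl-BBQ arrays, and 8.71, 8.98, 8.36 and 8.66 on the vehicle arrays. All 8 arrays of the treated groups lay below the lowest vehicle array. The mean was 7.88 ± 0.19 with TCDD, 7.96 ± 0.24 with Cl-BBQ and 8.68 ± 0.26 with vehicle (SD, n = 4 each), so Cd86 was 1.74-fold lower with TCDD than with vehicle.

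Cd80, the related ligand of the same receptors, had 7.27, 7.29, 7.53 and 6.74 with TCDD, 7.28, 7.26, 7.15 and 6.99 with Cl-BBQ, and 7.15, 7.15, 7.48 and 7.46 with vehicle. TCDD array 4 was the lowest of the 12 and TCDD array 3 the highest, so the groups overlapped fully. The mean differed from vehicle by −0.10 log2 with TCDD and −0.14 with Cl-BBQ. A second Cd80 probe set disagreed in sign, with differences of 0.13 log2 with TCDD and 0.12 with Cl-BBQ.

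Cd83, a surface marker of activated dendritic cells and lymphocytes that is known to stabilise CD86 and class II on the cell surface, had 7.43, 7.82, 7.69 and 7.51 with TCDD, 7.58, 7.78, 7.83 and 7.80 with Cl-BBQ, and 8.16, 8.07, 8.03 and 8.29 with vehicle. As for Cd86, all 8 treated arrays lay below the 4 vehicle arrays. The TCDD mean was 7.61 ± 0.17 and the vehicle mean 8.14 ± 0.12 (SD, n = 4 each), a 1.44-fold lower level.

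Of the B-lineage genes, Cd22, a sialic acid-binding inhibitory co-receptor of the B cell receptor, had 7.06, 7.30, 7.13 and 6.96 with TCDD, 7.32, 7.31, 7.77 and 7.38 with Cl-BBQ, and 7.91, 8.26, 7.59 and 8.52 with vehicle. It showed the largest difference of the 10 genes between TCDD and vehicle, 1.94-fold lower, with means of 7.11 ± 0.14 with TCDD and 8.07 ± 0.40 with vehicle (SD, n = 4 each). The vehicle arrays spread most, and Cl-BBQ array 3 lay above the lowest of them, vehicle array 3.

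Bank1, a scaffold protein that links the B cell receptor to Src-family kinases and calcium release, had 7.11, 7.12, 7.02 and 7.24 with TCDD, 7.04, 7.41, 7.31 and 7.03 with Cl-BBQ, and 7.42, 7.83, 7.40 and 7.78 with vehicle. The TCDD arrays lay closely together below all vehicle arrays, and of the Cl-BBQ arrays only array 2 lay above the lowest vehicle array, array 3. The TCDD level was 1.40-fold lower than that of vehicle (7.12 ± 0.09 with TCDD against 7.61 ± 0.23 with vehicle, SD, n = 4 each).

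Irf8, a transcription factor that drives dendritic cell and B cell development, had 8.36, 8.47, 8.32 and 8.53 with TCDD, 8.44, 8.41, 8.90 and 8.47 with Cl-BBQ, and 9.26, 8.94, 8.99 and 8.66 with vehicle. The lowest vehicle array, array 4, lay closest to the highest TCDD array, also array 4, without overlap. Irf8 was 1.45-fold lower with TCDD (8.42 ± 0.10 with TCDD against 8.96 ± 0.24 with vehicle, SD, n = 4 each), and 3 of the 4 Cl-BBQ arrays lay within the range of the TCDD arrays.

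Within the class II complex, Cd74, the invariant chain, had 6.71, 6.96, 6.75 and 6.87 with TCDD, 6.81, 6.87, 7.12 and 7.03 with Cl-BBQ, and 7.26, 7.40, 7.00 and 7.35 with vehicle. The highest TCDD array lay just below the lowest vehicle array, and 2 of the Cl-BBQ arrays lay above that vehicle array. Cd74 was 1.35-fold lower with TCDD (6.82 ± 0.12 with TCDD against 7.25 ± 0.18 with vehicle, SD, n = 4 each).

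The peptide-binding chains differed from vehicle by −0.13 to 0.04 log2 with TCDD and by −0.15 to 0.07 with Cl-BBQ. H2-Aa, the alpha chain of I-A, had 5.99, 6.15, 6.13 and 6.14 with TCDD, 6.04, 5.94, 6.18 and 6.18 with Cl-BBQ, and 6.17, 6.51, 6.21 and 6.03 with vehicle. H2-Ab1, its beta chain, ran from 6.84 to 7.14 with TCDD, from 6.71 to 6.97 with Cl-BBQ and from 6.86 to 7.06 with vehicle. H2-Eb1, the beta chain of I-E, ran from 7.10 to 7.32 with TCDD, from 7.21 to 7.38 with Cl-BBQ and from 7.03 to 7.28 with vehicle. None of the 3 chains separated any pair of groups.

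**Figure D1:**
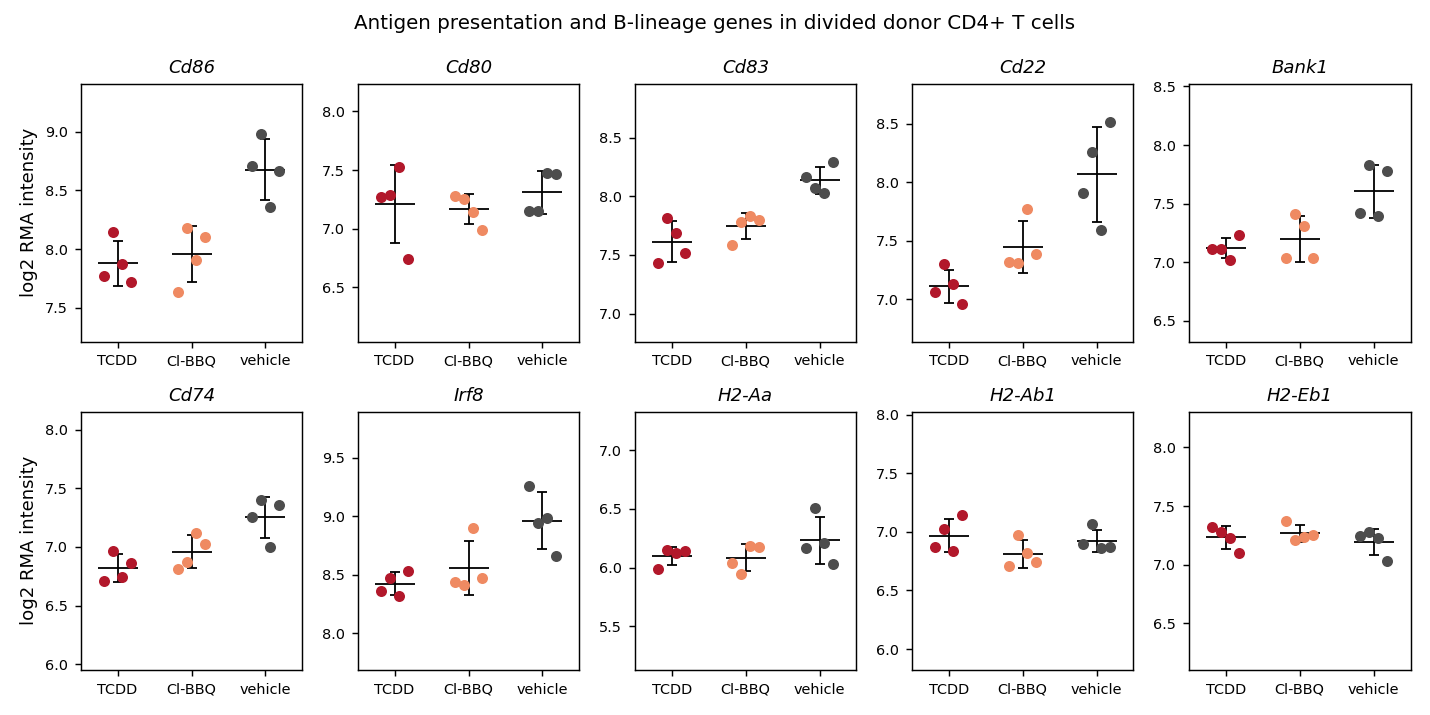
Log2 RMA intensity of the 10 genes (vertical axis, each panel spanning the same number of log2 units) on the 4 TCDD, 4 Cl-BBQ and 4 vehicle arrays; points are arrays, horizontal bars group means and error bars SD. Every TCDD array lies below every vehicle array in Cd86, Cd83, Cd22, Bank1, Cd74 and Irf8, where 2.65% of all genes do so. Cd80 and the 3 class II chains overlap. The genes were chosen on this contrast, so the separation supports nothing.

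With TCDD, 6 of the 10 genes were called lower, where 0.366% of all genes were, and 6 had groups that did not overlap in the lower direction, where 2.65% of all genes did. None was separated in the higher direction, where 3.15% of all genes were, and the same 6 had an unadjusted p under 0.05, where 8.69% of all genes did. These counts support nothing, since the genes were chosen on this contrast. The median log2 difference of the 10 was −0.46, where that of all genes was 0.00. The count of calls was 3 without TCDD array 1, 3 or 4 or without vehicle array 2, and 3 after quantile normalization or median centring of the arrays. In each of these the calls lost were Bank1, Cd74 and Irf8. Over the 12 fits with 1 array left out, the call was lost in 7 for Irf8 and in 6 each for Bank1 and Cd74. Cd86, Cd83 and Cd22 kept theirs in all 12. Bank1 also lost its call without the intensity trend (adjusted p = 0.0501 in limma).

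The comparison of Cl-BBQ with vehicle uses treated arrays on which the genes were not chosen, but the vehicle arrays are the same ones, so it is not independent of the choice. Cd86 was the only one of the 10 genes called, where 0.0502% of all genes were called lower. It fell 1.65-fold (log2 difference −0.72, 95% interval −1.01 to −0.43; adjusted p = 0.0421 in limma). Groups did not overlap in the lower direction for 2 of the 10, Cd86 and Cd83, where 1.58% of all genes did, and for 0 in the higher direction, where 2.27% did.

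The call of Cd86 was not stable. It was lost in 10 of 12 fits that left out 1 array, namely TCDD array 2, 3 or 4, each Cl-BBQ array, or vehicle array 1, 2 or 4, with adjusted p of 0.054 to 0.146 in limma, and the log2 difference stayed between −0.83 and −0.61.

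The other 9 genes did not pass the test with Cl-BBQ. The log2 difference was −0.62 for Cd22 (interval −0.96 to −0.28; adjusted p = 0.168 in limma), −0.41 for Bank1 (interval −0.64 to −0.17; adjusted p = 0.202 in limma) and −0.41 for Irf8 (interval −0.67 to −0.14; adjusted p = 0.313 in limma). It was −0.39 for Cd83 (interval −0.58 to −0.20; adjusted p = 0.125 in limma) and −0.29 for Cd74 (interval −0.49 to −0.10; adjusted p = 0.364 in limma). These intervals are those of single genes, without correction for the number of genes, and 6 of the 10 genes had an unadjusted p under 0.05, where 7.91% of all genes did. Cd22 was called without vehicle array 3, the vehicle array in which it was lowest (adjusted p = 0.0438 in limma).

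Cl-BBQ array 3, the array with the low Cyp1b1 value, was the highest of its group for Cd22 (7.77), Irf8 (8.90), Cd74 (7.12) and Cd83 (7.83), and lay within the other 3 for Cd86 (7.91) and Bank1 (7.31). Its 3 companions ran from 7.31 to 7.38 for Cd22 and from 8.41 to 8.47 for Irf8. The part of dose or exposure in this array was not tested.

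**Figure D2:**
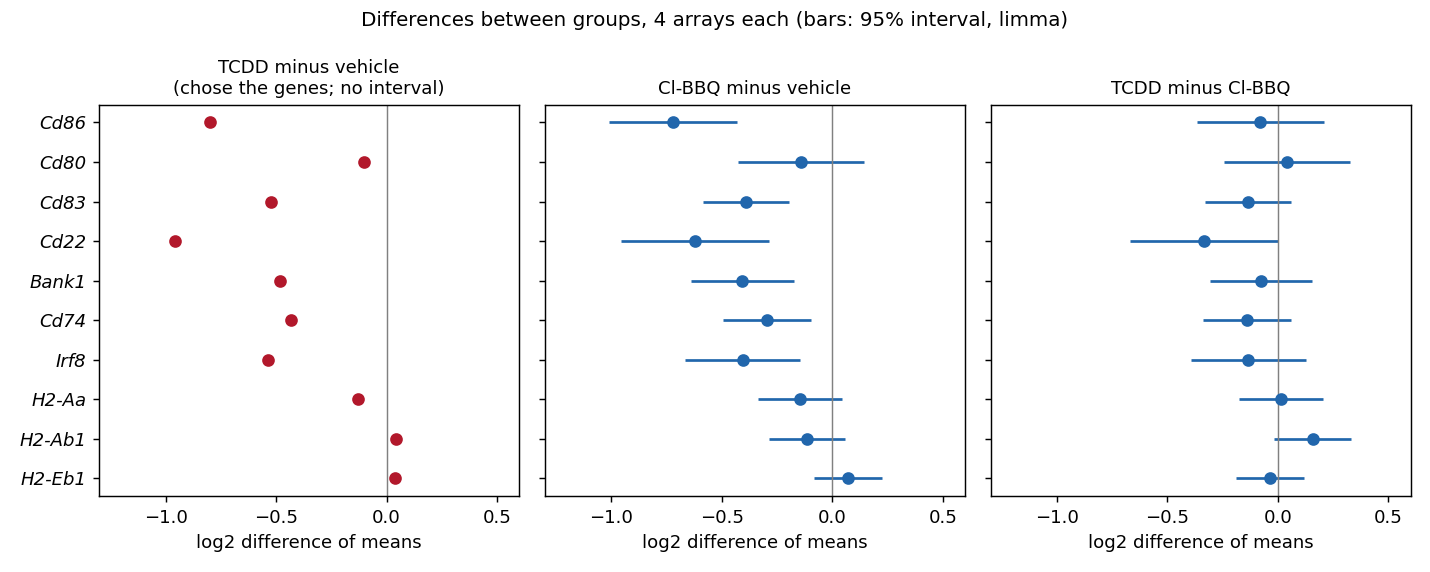
Log2 difference of group means (horizontal axis) for each of the 10 genes, for TCDD minus vehicle, Cl-BBQ minus vehicle and TCDD minus Cl-BBQ; bars are 95% intervals from limma, left out for the contrast on which the genes were chosen. With Cl-BBQ the intervals of Cd86, Cd83, Cd22, Bank1, Cd74 and Irf8 lie below 0. Between the compounds all 10 intervals reach 0. The intervals are not corrected for the number of genes, and with Cl-BBQ only Cd86 was called. Both contrasts with intervals share arrays with the contrast that chose the genes, so neither is independent of the choice.

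The compounds were given at different doses and schedules, so the comparison of TCDD with Cl-BBQ sets 2 treatments side by side and not 2 structures at a matched exposure. It also shares the TCDD arrays with the contrast that chose the genes. None of the 10 genes was called lower or higher in limma, and 0 had an unadjusted p under 0.05, where 2.99% of all genes did; over all genes 0% were called lower and 0.015% higher. The log2 difference was −0.34 for Cd22 (interval −0.67 to 0.00), the only gene whose groups did not overlap, where 0.797% of all genes did not in that direction. It was −0.08 for Cd86 (interval −0.37 to 0.21), −0.14 for Cd83 (interval −0.33 to 0.06), −0.14 for Cd74 (interval −0.34 to 0.06), −0.13 for Irf8 (interval −0.39 to 0.13) and −0.08 for Bank1 (interval −0.31 to 0.16). The intervals do not show that the compounds acted alike. Among all genes 3 were called, all higher with TCDD, and 5 with the replicate number as a block.

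Deviations of the 12 arrays from their group means, which do not depend on the differences between groups, described how the genes varied together. Cd22 and Cd74 were the closest pair, with Pearson r = 0.80, followed by Bank1 and H2-Ab1 at 0.71, Cd86 and Cd74 at 0.64, Cd83 and Cd74 at 0.62 and Cd83 and Cd22 at 0.61. Irf8 had r of −0.16 to 0.01 against Cd86, Cd83, Cd22 and Bank1, 0.25 against Cd74 and 0.38 against H2-Aa. Cd80 had r of −0.43 to 0.21 against Cd86, Cd83, Cd22, Bank1 and Cd74, and H2-Eb1 −0.48 to −0.02. For Cd74, the invariant chain, r was 0.80 with Cd22, 0.46 with H2-Aa, 0.42 with H2-Ab1 and −0.30 with H2-Eb1. Cd74 and these class II chains had means below the median of all genes, while Cd22 did not. The part of low intensity in these r values was not tested. These are descriptions over 12 arrays that share 3 group means, and arrays of 1 RNA sample also share its processing.

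**Figure D3:**
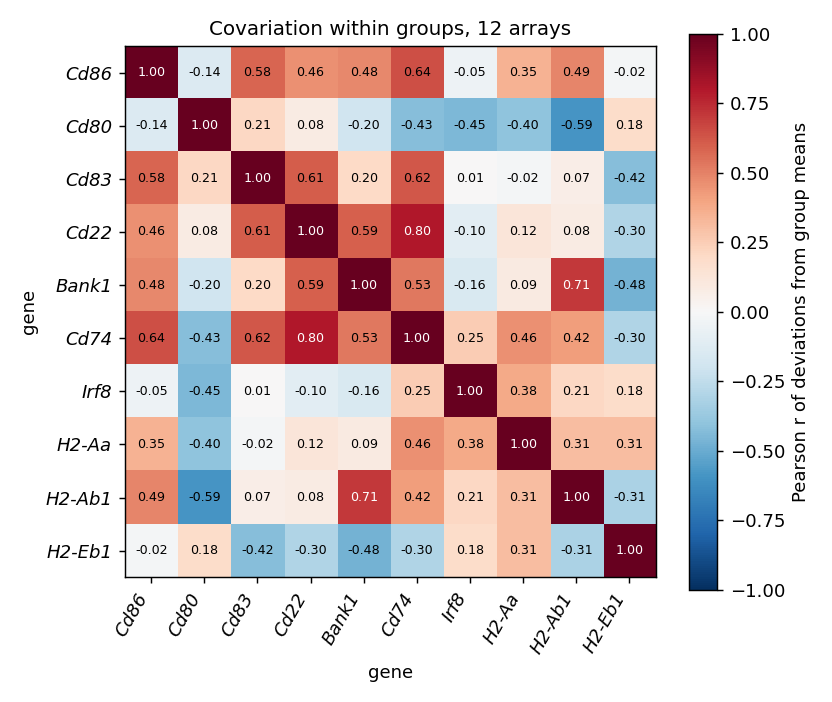
Pearson r between each pair of the 10 genes over 12 arrays, after the group mean was subtracted from each array; colour and number give r. The block of Cd86, Cd83, Cd22, Bank1 and Cd74 holds values of 0.20 to 0.80, while Irf8 has −0.16 to 0.25, Cd80 −0.43 to 0.21 and H2-Eb1 −0.48 to −0.02 against the same 5 genes.

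Outside the 10, the 3 genes most like each in these deviations included, for Cd74, Pdcd1lg2 (r = 0.92), the gene of a second ligand of the inhibitory receptor PD-1, after Cmpk1 (0.92). For Cd86 they were Aph1a (0.98), Trim41 (0.96) and Clasrp (0.94), and for Cd22 5430427O19Rik (0.89), Smim4 (0.88) and H1f2 (0.87). With so many genes to choose from and 12 arrays, such values are also found for genes that did not differ between groups: the genes closest to H2-Eb1 had r of 0.95 to 0.96.

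Other genes of the class II pathway were listed beside the 10. Of 12 measured, TCDD raised 1 and lowered 0, and 11 did not pass in limma, with 3 at an unadjusted p under 0.05. Over all genes 1.24% were called with TCDD and 8.69% had an unadjusted p under 0.05. With Cl-BBQ 0 of 12 were called in limma and 2 had an unadjusted p under 0.05, where 0.196% of all genes were called and 7.91% had such a p. The gene that rose was Lgmn, an asparaginyl endopeptidase that trims antigens and the invariant chain, at 9.46, 9.81, 9.78 and 9.85 with TCDD and 8.98, 8.85, 8.81 and 9.04 with vehicle. It was 1.74-fold higher (adjusted p = 0.0225 in limma) and all TCDD arrays lay above all vehicle arrays. The call was lost without TCDD array 2, 3 or 4 or vehicle array 1, 2 or 3 (adjusted p 0.0593 to 0.0988 in limma) and after median centring (adjusted p = 0.0589 in limma).

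Ciita, the master regulator of class II transcription, differed from vehicle by 0.11 log2 with TCDD (6.83 ± 0.11 with TCDD against 6.72 ± 0.06 with vehicle, SD, n = 4 each; adjusted p = 0.76 in limma). Rfx5, a factor that binds the X box, differed by −0.29 (adjusted p = 0.387 in limma), and H2-Oa, a chain of the class II peptide editor's inhibitor, by −0.30 (adjusted p = 0.39 in limma). H2-DMa, a chain of the peptide editor itself, and Ctss, a protease that degrades the invariant chain, were not called. H2-Ea, whose promoter is known to be deleted in the C57BL/6 haplotype so that its transcript would come from the DBA/2 haplotype of host cells, lay at 5.60 to 5.76 with TCDD, 5.48 to 5.89 with Cl-BBQ and 5.59 to 6.08 with vehicle. Whether the H2-Ea probe set also binds other transcripts was not tested, so its level may not be that of host transcript. The TCDD range lay within the vehicle range (log2 difference −0.09, interval −0.30 to 0.12; adjusted p = 0.904 in limma).

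In the class I pathway, which displays peptides to CD8+ T cells, 0 of 15 genes were called with either compound in limma, with 3 and 2 at an unadjusted p under 0.05 for TCDD and Cl-BBQ. Among all genes, 1.24% and 0.196% were called, and 8.69% and 7.91% had such a p. The median log2 difference was −0.02 with TCDD and −0.03 with Cl-BBQ. The differences with TCDD lay between −0.16 and 0.10 log2, among them those of B2m, the light chain of class I, and Tap1 and Tap2, the peptide transporter.

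Among 12 further co-stimulatory and inhibitory ligands, TCDD lowered 2 and raised 1 in limma, where 0.366% of all genes were called lower and 0.873% higher. The other 9 did not pass, and 7 of the 12 had an unadjusted p under 0.05, where 8.69% of all genes did. Tnfsf4, the OX40 ligand, fell 1.75-fold (8.03 ± 0.42 with TCDD against 8.84 ± 0.30 with vehicle, SD, n = 4 each; adjusted p = 0.0488 in limma), although its highest TCDD array, at 8.60, lay above the lowest vehicle array, at 8.54. Pdcd1lg2 fell 1.39-fold, with 7.94, 8.02, 7.78 and 8.05 on the TCDD arrays and 8.49, 8.54, 8.14 and 8.52 on the vehicle arrays (adjusted p = 0.0282 in limma). Cd48, an adhesion ligand of lymphocytes, rose 1.16-fold (12.56 ± 0.04 with TCDD against 12.36 ± 0.04 with vehicle, SD, n = 4 each; adjusted p = 0.00569 in limma) and kept its call in all 12 fits with 1 array left out, but lost it after median centring (adjusted p = 0.113 in limma) and without the intensity trend (adjusted p = 0.0921 in limma).

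The call of Tnfsf4 was lost in 8 of those fits, without TCDD array 1, 3 or 4, Cl-BBQ array 3 or 4, or vehicle array 1, 2 or 4 (adjusted p 0.0565 to 0.217 in limma), and also after quantile normalization, median centring, without the intensity trend and with array weights (adjusted p 0.0588 to 0.104 in limma). That of Pdcd1lg2 was lost in 6, without TCDD array 1, 2 or 3 or vehicle array 1, 2 or 4 (adjusted p 0.0576 to 0.136 in limma), and also after median centring (adjusted p = 0.0845 in limma). Cd274, the other PD-1 ligand, differed by −0.21 (adjusted p = 0.484 in limma), and Icosl and Cd40 were not called. With Cl-BBQ 0 of the 12 were called in limma and 4 had an unadjusted p under 0.05, where 0.196% and 7.91% of all genes did. The log2 difference was −0.62 for Tnfsf4 (adjusted p = 0.323 in limma) and −0.45 for Pdcd1lg2 (adjusted p = 0.11 in limma); Pdcd1lg2 passed without vehicle array 3 (adjusted p = 0.0406 in limma).

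Of the receptors on the T cell side, Ctla4 rose 1.26-fold with TCDD, with 12.76, 12.77, 12.88 and 12.82 on the TCDD arrays and 12.54, 12.56, 12.48 and 12.31 on the vehicle arrays (adjusted p = 0.00192 in limma). All TCDD arrays lay above all vehicle arrays, in the direction opposite to that of Cd86. Cd28, Icos and Pdcd1 were not called with TCDD, where 1.24% of all genes were. With TCDD 3 of the 4 receptors had an unadjusted p under 0.05, where 8.69% of all genes did. With Cl-BBQ 0 of the 4 were called in limma and 2 had an unadjusted p under 0.05, where 0.196% and 7.91% of all genes did.

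B cell markers other than the 10 genes were also listed. Of 22 measured, 0 were called with either compound in limma, where 1.24% of all genes were with TCDD and 0.196% with Cl-BBQ. At an unadjusted p under 0.05 were 3 for TCDD and 1 for Cl-BBQ, where 8.69% and 7.91% of all genes were. The median log2 difference was 0.01 in both comparisons. The 3 with an unadjusted p under 0.05 for TCDD were Pou2af1 (log2 difference −0.31) and Btk (−0.43), lower, and Cd79b (0.23), higher. Every TCDD array lay below every vehicle array for Pou2af1 (9.13 to 9.33 against 9.45 to 9.60) and Cd72 (7.57 to 7.71 against 7.75 to 8.02), where 2.65% of all genes did so. Cd79a, the signalling chain of the B cell receptor, had 6.52, 6.22, 6.21 and 6.54 with TCDD and 6.63, 6.63, 6.35 and 6.48 with vehicle. Ms4a1, which encodes CD20, averaged 4.94 ± 0.18 with TCDD and 5.07 ± 0.20 with vehicle, and Pax5, the B-lineage transcription factor, 7.37 ± 0.12 with TCDD and 7.25 ± 0.09 with vehicle (SD, n = 4 each). The summed level of the 22 markers, in log2, ran from 12.62 to 12.88 with TCDD, 12.54 to 13.01 with Cl-BBQ and 12.68 to 12.83 with vehicle. Intensities were summed before the log, so the brightest marker, Cd37 (mean 11.74 with vehicle), weighs most and the sum says little of the dimmer ones. That of the first 5 (Ms4a1, Cd79a, Cd79b, Pax5 and Ebf1) ran from 8.98 to 9.18 with TCDD, from 8.96 to 9.08 with Cl-BBQ and from 8.89 to 9.14 with vehicle. RMA values have no 0, so absence of a marker could not be read from them, and the part of B cells in the values of Cd22 and Bank1 was not tested.

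Of 12 genes of B cell receptor signalling, 1 rose with TCDD and 11 were not called in limma, where 1.24% of all genes were called. An unadjusted p under 0.05 was found for 6 of the 12 with TCDD, where 8.69% of all genes had one. Plcg2, a phospholipase C known from B cell receptor signalling, was 1.53-fold higher, with 7.57, 7.80, 7.75 and 7.79 on the TCDD arrays and 7.22, 7.10, 7.06 and 7.07 on the vehicle arrays (adjusted p = 0.000275 in limma). Every TCDD array exceeded every vehicle array, and the call held in all 12 fits with 1 array left out. Btk, a kinase of the same pathway, differed by −0.43 (adjusted p = 0.447 in limma), and Syk and Blnk were not called. With Cl-BBQ 0 of the 12 were called in limma and 3 had an unadjusted p under 0.05, where 0.196% and 7.91% of all genes did. Plcg2 differed by 0.36 (interval 0.21 to 0.52; adjusted p = 0.0634 in limma) and passed without TCDD array 1 (adjusted p = 0.0411 in limma).

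Dendritic cell and myeloid markers, 27 in number, had 0 calls with either compound in limma, with 4 and 3 at an unadjusted p under 0.05 for TCDD and Cl-BBQ. Beside each list of this paragraph stand the shares of all genes: 1.24% and 0.196% were called, and 8.69% and 7.91% had such a p. The summed level of these 27 markers ran from 13.13 to 13.23 with TCDD, 13.15 to 13.30 with Cl-BBQ and 13.05 to 13.24 with vehicle. In this sum the brightest marker, Ccr7 (mean 11.91 with vehicle), weighs most, so it says little of the dimmer ones. Itgax, Itgam, Flt3, Zbtb46 and Batf3, the first 5 of the list, summed to 9.27 to 9.32 with TCDD, 9.23 to 9.40 with Cl-BBQ and 9.20 to 9.25 with vehicle. Of 12 relatives and partners of Irf8, 0 were called with either compound in limma, with 2 and 5 at an unadjusted p under 0.05 for TCDD and Cl-BBQ, and Irf4, its closest relative in lymphocytes, differed by −0.08 with TCDD (adjusted p = 0.916 in limma). NK cell genes (6) and neutrophil, platelet and erythroid genes (9) had 0 calls and 0 at an unadjusted p under 0.05 with either compound in limma.

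**Figure D4:**
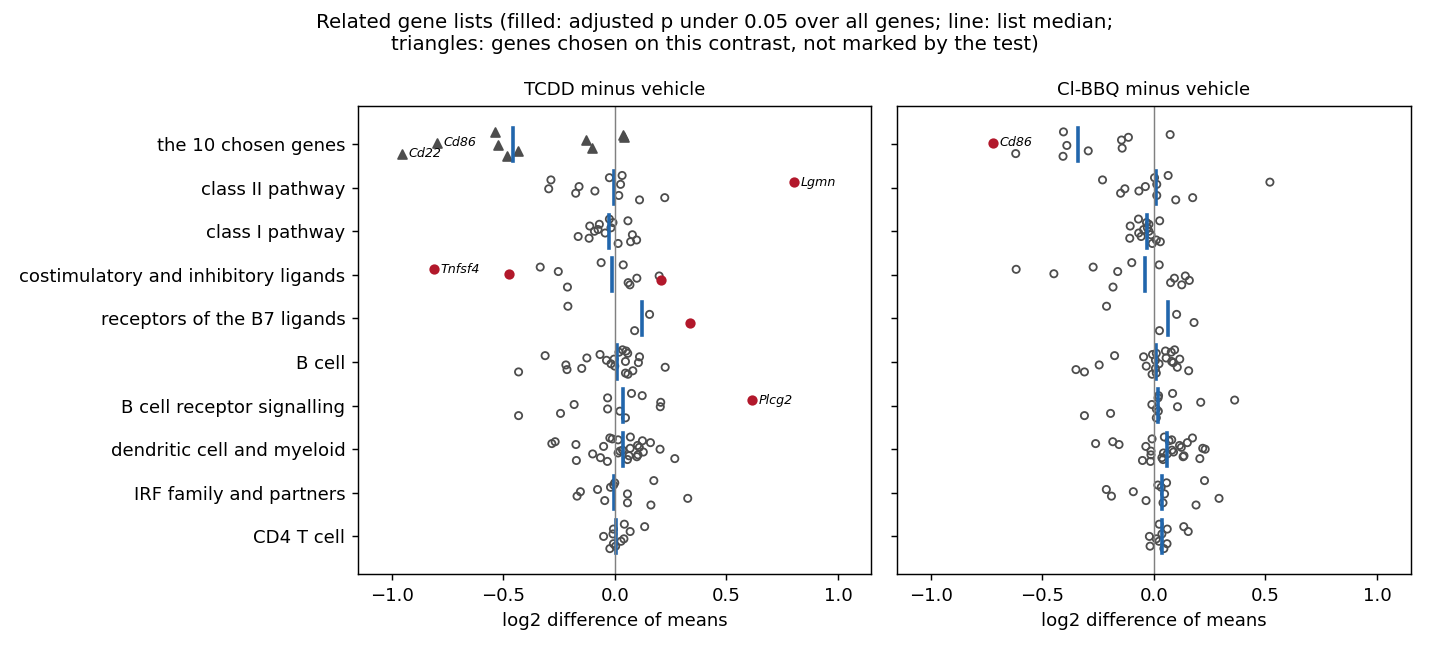
Log2 difference of group means (horizontal axis) for TCDD minus vehicle (left) and Cl-BBQ minus vehicle (right), 1 point per gene, in 10 lists; filled circles passed an adjusted p of 0.05 over all genes, triangles are the 10 chosen genes in the contrast that chose them, and vertical lines are list medians. The chosen genes have medians of −0.46 and −0.34. They were chosen for lower values with TCDD, and both contrasts use the same vehicle arrays, so these medians test nothing. The medians of the B cell and the dendritic cell and myeloid lists lie at 0.01 to 0.06.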

How the data were processed

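The deposited table holds log2 intensities per probe set, made by the authors with RMA per the submitters' processing notes; its version and the set of arrays it was run on are not stated in any label, and the log2 scale was read from the values (2.49 to 14.2). Of 35556 probe sets, 21789 had 1 gene symbol in the platform table, 1621 several and 12146 none; the last 2 kinds were left unnamed. Each gene took its probe set with the highest mean, leaving 19938 genes, with no filter. One limma model (version 3.58.1, under R 4.3.3), with 1 mean per group and an intensity trend, was used, two-sided, adjusted by Benjamini-Hochberg over all genes; the fit was tested on simulated data. Figures used matplotlib 3.10.9. Precision is limited by the 4 arrays per group.

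The 10 genes, lists and tests were chosen with earlier results of these data known. Named were the 10 genes, each called list gene, genes among the first 5 measured of a list, H2-Ea, and, of the 3 genes closest to each of the 10 within groups, those given. Rfx5, Pou2af1, Cd72, Cd37 and Ccr7 were added after their values were seen. Deviations of same-numbered TCDD and Cl-BBQ arrays had r = 0.606, 0.113, 0.157 and 0.365, and same-numbered pairs with vehicle arrays had −0.134 to 0.182. TCDD and Cl-BBQ arrays of different number ran from −0.588 to 0.419, and Cl-BBQ and vehicle arrays of different number from −0.504 to 0.505. These values therefore do not establish that a number pairs arrays. The labels do not say what a number shares. Alternatives were other scaling, a filter on dim genes, the mean of all probe sets, no trend, 2 groups only, array weights, the replicate block and leaving out each array.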

Additional observations from a re-analysis of the deposited data

Results flagged for a closer look

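In a group of 4 arrays, the highest or lowest value was singled out where its gap to the next was too wide a part of the group's range by Dixon's 95% criterion, which chance gives for about 1 in 20 groups. Of 165 groups over 55 of the named genes, 9 did so. Cl-BBQ array 3 was high for Cd22 (7.77, the others 7.31 to 7.38) and for Irf8 (8.90, the others 8.41 to 8.47), and low for Cyp1b1 (5.93, the others 7.89 to 8.24). TCDD array 1 was low for H2-Aa (5.99) and for Cyp1b1 (9.68). Vehicle array 2 was high for Rfx5 (8.38) and for Cd8a (8.46, the others 6.96 to 7.03), vehicle array 3 was low for Pdcd1lg2 (8.14), and Cl-BBQ array 1 was low for Cd274 (9.89).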

How the results depend on the processing

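For TCDD against vehicle, 247 genes were called, 160 after median centring, 391 with array weights, 397 with the replicate block and 150 to 321 with 1 array left out. Of the 10 genes, 6 were called, where 1.24% of all genes were. The count was 3 after quantile normalization or median centring and 3 to 6 with 1 array left out. It supports nothing, since the genes were chosen on this contrast. For Cl-BBQ, 39 genes were called, 71 after quantile normalization, 8 after median centring, 18 without an intensity trend, 11 from the 2 groups alone, 111 with the replicate block and 3 to 61 with 1 array left out; of the 10 genes 1 was called, 0 after median centring, without the trend or from the 2 groups alone, and 0 to 2 with 1 array left out. For TCDD against Cl-BBQ, 3 genes were called, 0 after quantile normalization, without the trend or from the 2 groups alone, 9 with array weights, 5 with the replicate block and 0 to 7 with 1 array left out; of the 10 genes 0 were called in all 20 alternatives. The replicate block added a call of Tnfsf4 with Cl-BBQ (adjusted p = 0.00393 in limma) and changed no call among the 10 genes; the cause of the changes in these counts was not tested. The log2 differences of Cd86, Cd83, Cd22, Bank1, Cd74 and Irf8 from vehicle stayed negative in all alternatives that measured them, for both compounds. The filter on dim genes removed 6 of the 10 genes (Cd80, Bank1, Cd74 and the 3 class II chains).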
